A study of Homo sapiens with 4 samples.

Results

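Isolated constitutive sites are accessible regions that were found in every library of the study and had no other accessible region within 20 kb on either side. On chromosomes 1 to 22, peaks of the 4 deposited lists were joined wherever they overlapped by 1 bp or more, which gave 366095 regions. Of these, 103006 had a peak in all 4 lists, and 1383 of those lay more than 20 kb from every other region of any list. The isolated sites were therefore 0.378% of all regions and 1.34% of the regions in all 4 lists. The presence of a peak and the distance between peaks chose them, so both are given as a description. Nearly all isolated sites had a neighbour on both sides, and 3 were the first or last region of their chromosome, with a neighbour on 1 side only.

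The lists came from ATAC-seq of BCPAP, an established human thyroid cancer cell line. In this assay a transposase cuts exposed DNA and tags it for sequencing, and accessible places appear as peaks of read coverage. There were 2 libraries of untreated cells and 2 of cells treated with 5-azacytidine, a nucleoside drug that is built into DNA, binds DNA methyltransferases there and so lowers CpG methylation. The labels give neither dose nor duration, and nothing in them ties the replicates to separate cultures, so their spread may be purely technical. Coverage is an average over many cells, and fewer accessible cells and less insertion per cell cannot be told apart.

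Much of the genome between genes holds few accessible sites, and long stretches without genes are known as gene deserts. Sites that stand alone and are open in many conditions are often promoters of genes without close neighbours, binding sites of the insulator protein CTCF, or distal enhancers that act on a remote gene. DNA in such stretches tends to lose methylation in tumours, and 5-azacytidine lowers it further. These are background facts. Which of these classes a given site belongs to was not analysed here, because no gene positions or genome sequence of the hg19 build were used.

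The value used for each site is its summit coverage, the number of reads over the highest point of its highest peak, which the deposited fold enrichment gives exactly. The lowest listed coverage was 4 in every library. The untreated lists held 216020 and 218581 autosomal peaks (replicates 1 and 2), the treated lists 254980 and 239875. Treated replicate 1 stood apart: its median coverage over the regions in all 4 lists was 11, against 23 and 18 in the untreated libraries and 16 in treated replicate 2. Coverage was therefore also expressed as a log2 value relative to the library's own median over those 103006 regions, called relative coverage below. Values between the groups are log2 differences of this relative coverage, treated minus untreated.

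The isolated sites were spread very unevenly over the chromosomes. Chromosome 4 held 180 of them, the largest number, which was 3.47% (95% Wilson interval 3.005 to 4.003) of its regions in all 4 lists. Chromosome 8 followed with 3.41% (2.86 to 4.07, 120 sites), then chromosome 7 with 3.28% (2.75 to 3.90, 121 sites) and chromosome 13 with 2.92% (2.32 to 3.68, 70 sites). At the other end, chromosome 20 held 4 isolated sites, 0.0981% (0.0382 to 0.252) of its regions in all 4 lists. Chromosome 11 held 21 (0.309%, 0.202 to 0.471), chromosome 17 held 19 (0.416%, 0.267 to 0.649) and chromosome 5 held 39 (0.457%, 0.335 to 0.624). Regions are no replicates, so these intervals reflect counting error alone.

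**Figure D1:**
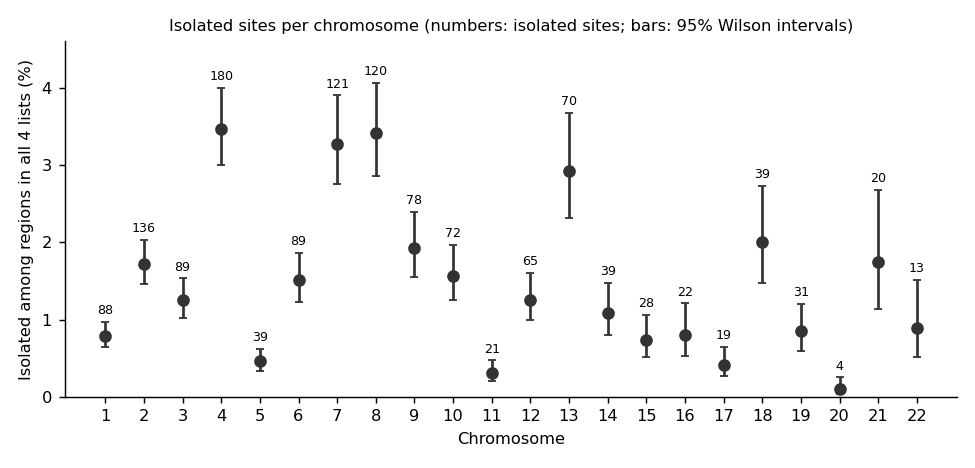
Share of the regions in all 4 lists that were isolated by more than 20 kb, in percent, for each autosome; numbers are the isolated sites and bars are 95% Wilson intervals. Chromosomes 4, 7, 8 and 13 lie highest, at 2.92% to 3.47%, and chromosome 20 lies lowest, at 0.0981%.

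Chromosomes with many accessible regions had few isolated ones, as the 20 kb rule makes likely. Over the 22 autosomes, the number of regions per Mb and the number of isolated sites per 10 Mb had a Spearman rho of -0.79, given as a description. Chromosome 20 had 281 regions per Mb, the densest, and 0.636 isolated sites per 10 Mb. Chromosomes 8 and 7 had 74.6 and 75.5 regions per Mb, the sparsest, and 8.21 and 7.61 isolated sites per 10 Mb. Chromosome 19 did not follow this order. It had 232 regions per Mb, the second highest density, and still 5.27 isolated sites per 10 Mb, about as many as chromosomes 2, 6, 9, 10 and 21 (5.19 to 5.59), which had 99.6 to 117 regions per Mb.

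Within chromosomes the isolated sites were scarce near the ends. Of the 1383, 55 lay within 5 Mb of the first or last region of their chromosome, which was 3.98% (3.07 to 5.14), against 10.9% (10.7 to 11.1) of the other regions in all 4 lists. Of 566 windows of 5 Mb, 135 held no isolated site and 10 held at least 10. The fullest window was chromosome 4 between 90 and 95 Mb, with 12 isolated sites among 65 regions in all 4 lists. It was followed by chromosome 6 between 100 and 105 Mb and chromosome 9 between 25 and 30 Mb, with 11 each. The 10 windows with at least 10 isolated sites held a median of 291 regions of any kind, against 533 over all windows, and 4 of those 10 windows lay on chromosome 4.

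Isolation was mostly moderate. The distance to the nearer neighbour had a median of 27102 bp, and 156 sites (11.3%, 9.72 to 13.1) had no neighbour within 50 kb and 36 (2.60%, 1.89 to 3.58) none within 100 kb. The distance to the farther neighbour had a median of 46982 bp. The nearest neighbour of an isolated site was in 1 list only at 47.1% (44.5 to 49.7) of sites, against 38.9% (38.6 to 39.2) for the other regions in all 4 lists. It was itself in all 4 lists at 26.5% (24.3 to 28.9), against 34.8% (34.5 to 35.1). Of the isolated sites, 179 (12.9%) stood next to another isolated site with nothing listed between them. There were 79 such pairs and 7 strings of 3.

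The limit of 20 kb cuts a continuous range. The sites just inside it had nearer neighbours at 20002 to 20025 bp. On chromosome 4 the site from 133022603 to 133023132 had coverages of 13 and 9 in the untreated and 9 and 10 in the treated libraries, in the order of the replicates. On chromosome 13 the site from 70777656 to 70778357 had 8 and 7, and 5 and 7. Just outside, at 19994 bp, the region on chromosome 1 from 166845008 to 166845992 had 48 and 37, and 28 and 29. On the whole the regions on both sides of the limit were alike: 136 sites with a nearer neighbour at 20 to 21 kb had a median log2 difference of 0.07, and so had 170 regions at 19 to 20 kb.

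The gaps beside the sites are gaps in the deposited lists. Whether some of them span unsequenced DNA, or DNA to which reads cannot be assigned, was not analysed here. Peaks were numbered in their order along the genome, and some numbers were missing from the lists. At 803 of the 1383 sites (58.1%, 55.4 to 60.6) at least 1 list lacked a number between the site and the next listed peak, which leaves room for a peak that was called and later taken out. The other 580 sites had no missing number in any list.

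Being alone went with being in few lists. Of the 7541 isolated regions of any kind, 18.3% (17.5 to 19.2) were in all 4 lists, against 28.3% (28.2 to 28.5) of the 358554 other regions. Isolated regions in 1 list made up 56.7% (55.5 to 57.8), against 45.8% (45.6 to 46.0), and treated replicate 1 alone gave 2028 of the 4272. Among the other regions in 1 list it gave 69094 of 164251. Both untreated lists and neither treated list held 393 isolated regions, and the reverse held 123. Among the other regions the order was turned, with 11798 and 15362. Pairs that cross the groups were uneven as well: 293 isolated regions were in untreated replicate 1 and treated replicate 2 alone, and 44 in untreated replicate 2 and treated replicate 1 alone. Among the other regions these 2 pairs held 8487 and 7234. Same-numbered pairs shared 105 and 89 isolated regions, and 6122 and 6390 of the others.

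In form, most isolated sites were simple. Exactly 1 peak in each list was found at 79.2% (77.0 to 81.3) of them, against 66.0% (65.7 to 66.3) of the other regions in all 4 lists. Their median width after merging was 590 bp, against 638 bp, and 17.5% (15.6 to 19.6) were wider than 1000 bp, against 27.4% (27.1 to 27.7). The share whose highest peak was one of several summits of a larger original peak was 3.76% to 8.39% over the 4 libraries, against 14.0% to 21.9%. The middle of a listed interval was taken as the position of its summit. The distance between the outermost of the 4 summits had a median of 73 bp at isolated sites and 69 bp at the others. With exactly 1 peak in each list this distance follows from the width, so these are not separate measures there. All 4 summits lay within 50 bp at 487 isolated sites (35.2%, 32.7 to 37.8), against 38.8% (38.5 to 39.1). The summits were over 200 bp apart at 305 isolated sites. The spread was wider at low coverage, and with the isolated sites' mix of coverage classes the class medians of the other regions average 101 bp.

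Isolated sites had a lower median coverage than other constitutive regions in every library. The median isolated site had 18 and 13 reads at its summit in the untreated libraries, against 23 and 18 at the other regions in all 4 lists. In the treated libraries it had 9 and 13, against 11 and 16. Within the whole list of each library the typical isolated site still ranked above the middle, with a median percentile of 64.7 and 61.2 in the untreated and 66.3 and 66.0 in the treated libraries. A coverage of 50 or more was reached by 112 and 47 isolated sites in the untreated and 7 and 34 in the treated libraries. Of the 101623 other regions in all 4 lists, 19905 and 12115 reached it in the untreated and 1755 and 7282 in the treated libraries. A coverage of 6 or less, near the lowest listed value, was found at 69 and 162 sites in the untreated and 310 and 131 in the treated libraries. That low end held 22.4% of the isolated sites in treated replicate 1 and 4.99% to 11.7% in the other libraries. Of the other regions in all 4 lists it held 5.77% and 8.32% in the untreated and 15.2% and 7.52% in the treated libraries. In untreated replicate 1 the isolated sites, at 4.99%, were thus at the low end less often than the other regions.

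**Figure D2:**
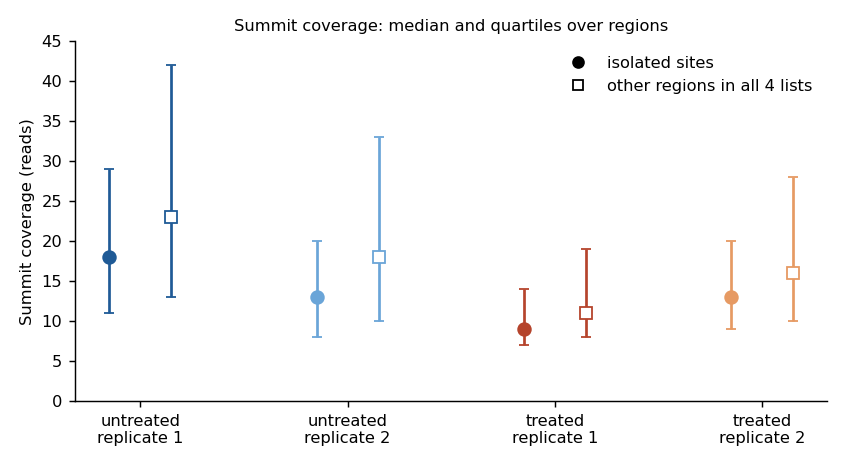
Summit coverage in reads in each library; points are medians and bars run from the lower to the upper quartile over regions, filled circles for the 1383 isolated sites and open squares for the other regions in all 4 lists. In each library the isolated sites have the lower median, and treated replicate 1 has the lowest values of all.

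Up to 20 kb, coverage was lower where neighbours were farther away. The median of the mean coverage was 18.8 at regions in all 4 lists with a neighbour up to 1 kb away, 15.5 at 1 to 5 kb, 14.3 at 5 to 20 kb and 13.5 at the isolated sites. Among the isolated sites it did not go on falling, with 13.8 at 20 to 30 kb and at 30 to 50 kb, 12 at 50 to 100 kb and 13.8 beyond 100 kb. A mean coverage above 50 was found at 11.1%, 5.14% and 3.69% of the first 3 classes and at 2.89% of the isolated sites. The order of the sites by coverage was shared between libraries, but less closely than elsewhere. Over the isolated sites Spearman's rho was 0.80 within the untreated pair, 0.70 within the treated pair and 0.63 to 0.70 between groups. Over the other regions it was 0.90, 0.81 and 0.76 to 0.81. These are descriptions over regions that share libraries.

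Relative to each library's own median, the isolated sites were slightly less low after treatment. Their median relative coverage stood at -0.35 and -0.47 without treatment and at -0.29 and -0.30 with it. Both treated libraries thus lay above both untreated libraries, and the untreated libraries differed from each other by about as much as the group means did. The median log2 difference per site was 0.18 (quartiles -0.20 and 0.52), against 0.06 (-0.30 and 0.47) over all regions in all 4 lists. Without scaling the values were -0.44 and -0.56, so the sign of the difference depends on the scaling. The gap of 0.12 between the medians cannot change with it, since scaling shifts all regions of a library alike. Background coverage differed much less between the libraries than the summit medians did. It was 0.913 and 0.898 in the untreated and 0.898 and 0.875 in the treated libraries. Scaling by the medians thus also removes a difference in summit height over background, and its source was not tested. Without treated replicate 1 the median was 0.14, against 0.03 over all regions, and without untreated replicate 2 it was 0.11, against 0.04. The latter narrowed the gap to 0.07.

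Relative coverage was higher in both treated than in both untreated libraries at 421 isolated sites, or 30.4%, where 27.2% of all regions in all 4 lists had this order. It was lower in both at 210 sites, or 15.2%, where the share over all regions was 22.3%. At the remaining 752 sites the groups overlapped. Without scaling, 518 isolated sites were lower and 46 higher, against shares of 47.7% and 4.42% over all regions. No test per site was run, because the coverage is the peak's own value from lists called separately, with 2 libraries a group. A log2 difference of at least 1 was found at 77 isolated sites and one of -1 or less at 21, which was 5.57% and 1.52%, against 6.68% and 1.88% over all regions.

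The difference moved with mean coverage, taken over the 4 unscaled libraries, in which the untreated ones weigh more. How far that weighting shapes the trend was not tested. Among isolated sites with a mean coverage of 4 to 8 the median log2 difference was 0.49, and it was 0.32 above 8 to 10, 0.23 above 10 to 15 and 0.02 above 15 to 25. It was -0.06 above 25 to 50 and -0.23 above 50. The other regions in all 4 lists had 0.57, 0.39, 0.17, -0.02, -0.15 and -0.22 in the same classes. A region must reach a coverage of 4 in each library to be in all 4 lists, and treated replicate 1 lay closest to that limit. The isolated sites were thus below the other regions in both classes up to 10 and above them in the 3 classes from 10 to 50. Against the median of the other regions in its coverage class, an isolated site had a median log2 difference of 0.02 more, over classes that went both ways, and 51.2% of the sites lay above it. Measured in this way, the median was -0.06 at the 580 sites without a missing peak number and 0.05 at the other 803. If the other regions had the isolated sites' mix of coverage classes, 30.8% of them would be higher and 17.9% lower in both treated libraries, beside the observed 30.4% and 15.2%.

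**Figure D3:**
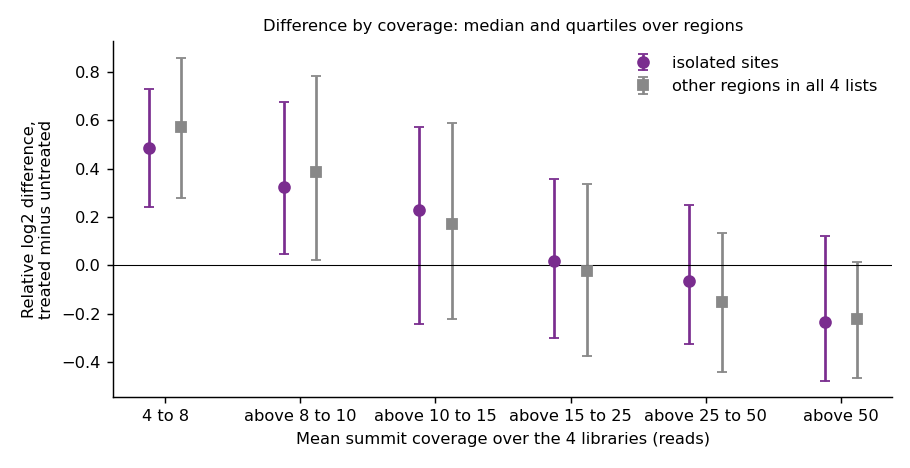
Log2 difference in relative coverage, treated minus untreated, by class of mean summit coverage in reads; points are medians and bars run from the lower to the upper quartile over regions, circles for isolated sites and squares for the other regions in all 4 lists. Both sets go from above 0 at low coverage to below 0 at high coverage, at 0.49 and 0.57 in the lowest class and -0.23 and -0.22 in the highest.

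The 1015 isolated sites with a mean coverage of at least 10 lay closer to 0. Their median log2 difference was 0.05, against -0.05 over the 81265 regions of that coverage. There 254 isolated sites were higher (25.02%) and 202 lower (19.9%) in both treated libraries, where 21.6% and 27.3% of all such regions were. In this range more isolated sites were higher than lower, and among all regions more were lower than higher. These shares are not matched for coverage within the range. The class above 10 to 15 held 28.5% of all isolated sites and 20.9% of the other regions in all 4 lists. In that class more were higher than lower in both sets.

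The most isolated sites showed the same direction. At the 36 sites with no neighbour within 100 kb the median log2 difference was 0.26, and it was 0.22 above that of other regions of the same coverage class. Of these 36, 14 were higher (38.9%) and 3 lower (8.33%) in both treated libraries, against 27.2% and 22.3% of all regions in all 4 lists. The sites with a nearer neighbour at 50 to 100 kb (120 sites), 30 to 50 kb (376) and 20 to 30 kb (851) had 0.23, 0.23 and 0.14, and 0.04, 0.05 and -0.03 against their coverage classes. By width, the 731 sites up to 600 bp wide had a median difference of 0.16, the 410 sites of up to 1000 bp 0.23 and the 242 wider sites 0.07, with median mean coverages of 13.5, 11.5 and 18.9.

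The strongest isolated sites were chosen by their worst percentile of coverage among the 4 libraries. At the top stood chromosome 14 from 81999993 to 82000666, with coverages of 140 and 105 in the untreated and 62 and 99 in the treated libraries. Its nearest neighbours lay 25.5 kb and 33.2 kb away, and its relative coverage overlapped between the groups, with a log2 difference of -0.01. It had 1 peak in each list. The site on chromosome 5 from 18698483 to 18699009 was of the same narrow form and had 99 and 85, and 57 and 64, with a difference of 0.01. These single-summit sites ranked among the highest peaks of all 4 libraries.

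The other 6 of the strongest sites were wide, from 1473 to 3061 bp, and in most lists held several peaks. Chromosome 1 from 184723097 to 184725084 had coverages of 132 and 116 in the untreated and 57 and 84 in the treated libraries, a log2 difference of -0.22. A pair of sites lay at the start of chromosome 4. The site from 124030 to 125727 had 159 and 85, and 60 and 75 (-0.18), and that from 329587 to 332647 had 149 and 94, and 51 and 68 (-0.39). The neighbours of the first lay 59.0 kb and 73.4 kb away, and no other of the 8 strongest sites had its nearer neighbour as far off. Their relative coverage overlapped between the groups at the first and not at the second.

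On chromosome 21, the site from 15754828 to 15756300 had coverages of 122 and 84, and 33 and 59, with a log2 difference of -0.58. Chromosome 16 from 56484639 to 56486480 had 84 and 103, and 39 and 52 (-0.43). Chromosome 10 from 92980154 to 92981983 had 103 and 64, and 37 and 54 (-0.24). At 5 of the 8 strongest sites both treated libraries lay below both untreated libraries in relative coverage, and at none above. Among the 40 isolated sites with a mean coverage above 50, 19 were lower and 7 higher. The shares of 47.5% and 17.5% compare with 48.0% and 10.4% of the other regions above that coverage. At all 6 wide sites a peak number was missing beside the site in at least 1 list.

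The sites farthest from any neighbour were of ordinary or low height. Chromosome 9 from 7799583 to 7800115 had its nearest neighbours 478 kb and 587 kb away, and coverages of 15 and 10 in the untreated and 8 and 20 in the treated libraries. Chromosome 2 from 126163307 to 126163812 had neighbours at 401 kb and 733 kb, coverages of 15 and 17, and 12 and 11, and all 4 summits within 6 bp. No peak number was missing beside this site in any list, whereas numbers were missing in 3 lists beside the site of chromosome 9. Chromosome 11 from 50777737 to 50778792 had 6 and 9, and 6 and 14, and chromosome 5 from 70308128 to 70309155 had 11 and 6, and 5 and 8. These had summits up to 531 bp and 528 bp apart, so the 4 libraries did not mark 1 common point there.

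On chromosome 9, the site from 45728925 to 45729732 had 20 and 20, and 8 and 8, and its nearest neighbour lay 278 kb away. Its relative coverage was lower in both treated libraries, with a log2 difference of -0.70, while it was higher in both at the first site of chromosome 9 (0.66) and at that of chromosome 11 (0.94). The farther neighbour lay beyond 1 Mb at 4 sites. The longest stretch without a listed peak beside an isolated site, 3.32 Mb, followed that on chromosome 18 from 15197478 to 15198096. Its coverages were 12 and 7, and 8 and 7. On chromosome 7, 2.12 Mb without a listed peak preceded the site from 146658107 to 146659227 (15 and 9, and 4 and 15) and 1.51 Mb that from 126214249 to 126215247 (11 and 11, and 9 and 15). On chromosome 9, 1.11 Mb followed the site from 11064825 to 11065495, with 33 and 21, and 22 and 27.

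The sites below were picked for their difference among those with a mean coverage of at least 10 and no overlap between the groups, so their values describe the extremes and are not a test. The lowest was on chromosome 3 from 161488020 to 161488915. Its coverage was 37 and 23 in the untreated and 4 and 8 in the treated libraries, which is a log2 difference of -1.75 in relative coverage, or 0.297 times. The treated values were at or near the lowest that the lists hold. Chromosome 9 from 15936219 to 15936805 had 38 and 20, and 5 and 8 (-1.51), and chromosome 12 from 23625454 to 23626036 had 44 and 38, and 6 and 16 (-1.44). Chromosome 22 from 29326666 to 29327186 had 21 and 19, and 4 and 6 (-1.41). Each of these sites had 1 peak in each list. Without treatment those of chromosomes 3, 9 and 12 were at or above the upper quartile of the isolated sites, which was 29 and 20 in the untreated libraries.

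Chromosome 13 from 41452421 to 41453073 had coverages of 27 and 21, and 5 and 7, with a log2 difference of -1.39. Chromosome 5 from 97133814 to 97134344 had 33 and 21, and 8 and 6 (-1.31). At all 6 of these sites both treated libraries were below both untreated libraries before scaling as well. Treated replicate 2 had the typical coverage closest to that of the untreated libraries. It had 6 to 16 reads where the untreated libraries had 19 to 44. Its 16 reads, at the site of chromosome 12, equalled its median over the regions in all 4 lists, so it was not low there. No peak number was missing beside the sites of chromosomes 3, 9 and 12.

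The site with the highest difference lay on chromosome 6 from 101111040 to 101111574. It had coverages of 6 and 7 in the untreated and 14 and 19 in the treated libraries, a log2 difference of 1.95, or 3.86 times in relative coverage. Chromosome 8 from 64303812 to 64304530 had 8 and 8, and 22 and 15 (1.80), and chromosome 3 from 81298578 to 81299692 had 17 and 7, and 20 and 27 (1.71). On chromosome 3 the unscaled coverage of treated replicate 1 exceeded that of untreated replicate 1 by only 3 reads. These sites were near the lowest listed coverage without treatment, apart from that 1 library.

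Chromosome 8 held a pair of further sites of this kind. The site from 128490828 to 128491385 had coverages of 11 and 5, and 10 and 23 (1.65), so that treated replicate 1 was below untreated replicate 1 before scaling. The site from 10873200 to 10874287 had 7 and 7, and 11 and 18 (1.62). Chromosome 10 from 111436333 to 111436962 had 8 and 8, and 12 and 21 (1.61). In 5 of the 6 sites both treated libraries were above both untreated libraries without any scaling as well, the exception being the first of this pair. A coverage of 10 to 27 reads in treated cells stood against 5 to 17 in untreated cells.

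**Figure D4:**
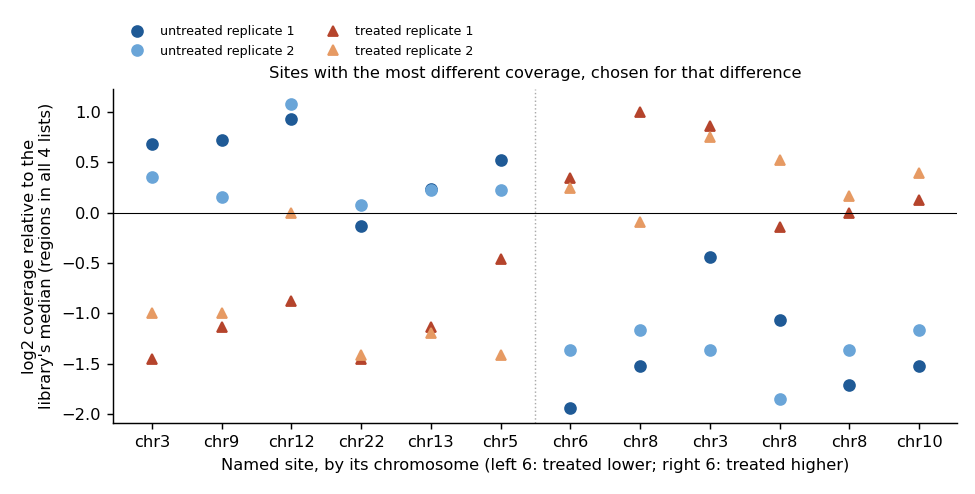
Log2 summit coverage relative to the library's median in the 4 libraries, for the 6 isolated sites with the lowest and the 6 with the highest difference among those with a mean coverage of at least 10; circles are untreated and triangles treated libraries. The groups do not overlap by choice, and the differences run from -1.75 to -1.31 on the left and from 1.95 to 1.61 on the right.

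Isolated sites of chromosome 19, singled out once their values were known, were among the tallest. There were 31, with a median coverage of 41 and 35 in the untreated and 15 and 23 in the treated libraries, against 18 and 13, and 9 and 13, at isolated sites of the other autosomes. They were high in their own chromosome too, where the other regions in all 4 lists had medians of 24 and 20, and 12 and 17. Sites wider than 1000 bp made up 14 of the 31, against 16.9% on the other autosomes. Chromosome 19 is known for its clusters of zinc finger genes, but whether these sites lie at such genes was not analysed here. Of the 31, 10 lay between 20 and 25 Mb.

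Coverage on chromosome 19 was lower after treatment at most isolated sites. Relative coverage was below that of the untreated libraries at 20 of the 31 sites, with a median log2 difference of -0.25, against 0.19 at isolated sites of the other autosomes and -0.06 at the other regions of chromosome 19. Both treated libraries were lower at 13 sites (41.9%) and higher at 2 (6.45%), against 30.8% and 24.2% of the other regions of chromosome 19 and 22.3% and 27.2% of all regions in all 4 lists. Against other regions of the same coverage class the median was -0.22. The median stayed below 0 without each library in turn, from -0.36 without untreated replicate 1 to -0.17 without untreated replicate 2, where 16 of the 31 sites were below 0. With the scaling by library medians, chromosome 19 was the only one of the 19 autosomes with at least 20 isolated sites whose median was below 0. Of the autosomes with fewer sites, chromosome 17 (19 sites) had -0.05 and chromosome 22 (13 sites) -0.04. Chromosomes 16 and 21 were little above 0, at 0.02 and 0.06. Which chromosomes lie below 0 depends on the scaling, which shifts all these medians alike. Without scaling, the median over all isolated sites was -0.44.

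The largest differences on chromosome 19 were near 53 Mb. The site from 53399918 to 53401221 had coverages of 79 and 64 in the untreated and 20 and 25 in the treated libraries, a log2 difference of -1.05. The site from 53324073 to 53325156 had 24 and 19, and 6 and 8 (-1.01). The site from 36822455 to 36823009 followed with 62 and 52, and 21 and 23 (-0.75). At each of these the groups did not overlap.

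The 3 neighbouring isolated sites near 45 Mb were among those with higher relative coverage after treatment, while 20 of the 31 sites of the chromosome were lower. The site from 44905421 to 44905937 had coverages of 82 and 49 in the untreated and 53 and 68 in the treated libraries, a log2 difference of 0.54. The site from 44763788 to 44765636 had 53 and 37, and 36 and 41 (0.41), and that from 44952163 to 44952985 had 42 and 29, and 18 and 33 (0.10). The first 2 were the only isolated sites of the chromosome with both treated libraries above both untreated libraries. A site from 44645408 to 44645948, the last isolated one before them, had 36 and 22, and 10 and 16 (-0.54). The highest difference among the isolated sites of chromosome 19 lay elsewhere, from 30717947 to 30719094. That weak site had 7 and 6, and 8 and 5 (0.58), with overlapping groups. The positions and coverages in this paragraph were chosen after their values were seen.

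**Figure D5:**
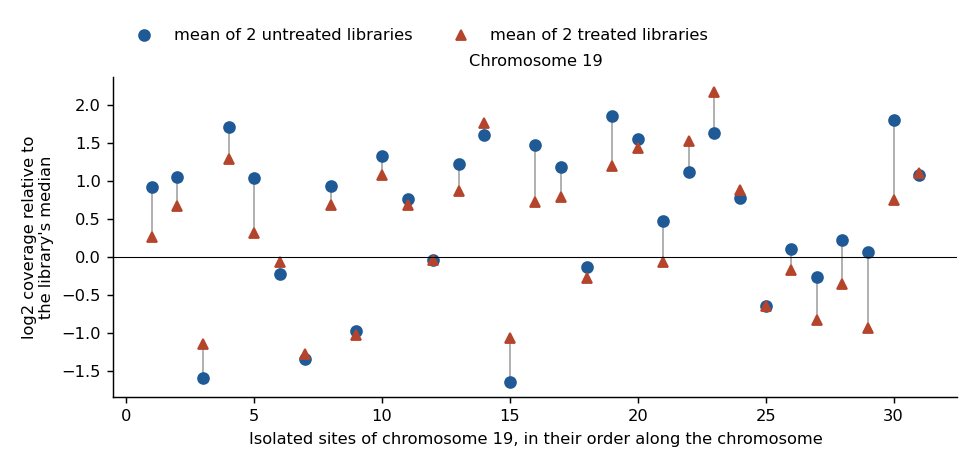
Relative log2 summit coverage of the 31 isolated sites of chromosome 19 in their order along the chromosome; circles are means of the 2 untreated and triangles of the 2 treated libraries, joined by a line. Triangles lie below circles at 20 of the 31 sites, with a median difference of -0.25.

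The 7 strings of 3 isolated sites differed in how alike their sites were. On chromosome 4, the 3 sites between 92679587 and 92747846 had log2 differences of 0.53, 0.51 and 0.49 in their order along the chromosome. On chromosome 7, those between 6745897 and 6832598 had -0.21, -0.18 and 0.11. The differences of the chromosome 4 string were nearly equal. On chromosome 7 the last site had the opposite sign and was weaker, with coverages of 9 and 9, and 4 and 10.

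Other strings held sites far apart in value. On chromosome 4, the string from 73567570 to 73683279 had 0.26, -0.14 and 1.43, and its middle site had coverages of 31 and 24 in the untreated and 13 and 20 in the treated libraries, while its last site had 7 and 5, and 9 and 12. On chromosome 8, from 104914332 to 105038490, the differences were -0.01, 0.16 and 1.35, and on chromosome 3, from 187036868 to 187121974, they were 1.26, 0.44 and -0.25. Those on chromosome 11 from 42035053 to 42088144 were -0.25, -0.73 and 0.51, and those on chromosome 12 from 58461348 to 58570525 were 0.23, 0.58 and 0.99. Within strings the weakest site was not regularly the one with the highest difference: on chromosome 8 the weakest, with coverages of 12 and 4, and 4 and 5, had -0.01.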

How the data were processed

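ATAC-seq libraries of BCPAP cells, 2 untreated and 2 treated with 5-azacytidine, were analysed from 1 peak list each. Trimmomatic, Bowtie2, Picard and MACS2 are named, with the hg19 build, by the submitters' processing notes. Their versions and settings, and any filters, were not given in the sources used here. Intervals in the deposited lists were 500 bp wide on the autosomes, and their middle was taken as the summit position. The deposited fold enrichment ratio was a whole multiple of 1 step per list (within 0.01 of a step), which gave the coverage at the summit, as the fold is coverage plus 1 over background plus 1. Background coverage was 0.875 to 0.913, and read numbers are unknown. The caller's −log10 p and −log10 q stand in the deposited lists as well, and q served as a filter in an alternative. The peak score, scaled by the authors to a fixed total per list, and the summit offset in the deposited lists were not used.

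Peaks sharing at least 1 bp were merged, and the highest peak of a list gave a region's coverage. The lists are of unequal length and the coverage is the peak's own value, so it is described and not tested. Shares carry 95% Wilson intervals. Named sites are the 8 strongest, the 5 most isolated, and the 6 lowest and 6 highest differences among sites with a mean coverage of at least 10. Members and comparisons were chosen with earlier results of these data known. Chromosome 19, its sites, the strings, the classes of coverage and the sites beside stretches over 1 Mb were chosen after seeing values. Alternatives were distances of 10 and 50 kb, merging within 150 bp, a −log10 q of at least 5, other scalings, leaving out each library and the replicate block. Tables were handled with pandas 2.3.3 and numpy 2.4.6 in Python 3.11.15, intervals with scipy 1.17.1 and figures with matplotlib 3.10.9. On simulated lists 100% of 12000 sites were classed correctly.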

Additional observations from a re-analysis of the deposited data

How the results depend on the processing

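The number of isolated sites, 1383, was 4619 at 10 kb, 156 at 50 kb, 3742 with a −log10 q of at least 5 and 580 without missing peak numbers (chosen after seeing the data). Sites lower in both treated libraries, 210, were 803, 18, 809 and 93 in these settings, and sites higher, 421, were 1330, 59, 1066 and 160. The shares over all regions in all 4 lists were 22.3% lower and 27.2% higher in these settings, except at that q, with 25.6% and 24.1%. The median log2 difference of 0.18 was 0.25 at 50 kb, 0.0664 at that q, 0.11 when scaled by regions with 1 peak in each list, 0.0836 when scaled by mean log2 coverage (chosen after seeing the data) and 0.0455 at a mean coverage of at least 10, where 254 sites were higher (21.6% of all such regions). It turned to -0.44 without scaling, with 518 sites lower and 46 higher (47.7% and 4.42% of all regions), and to -0.40 with the authors' fold enrichment, with 534 and 58 (48.5% and 5.89%). In both the median over all regions in all 4 lists moved as well, to -0.56 and -0.51, so the isolated sites lay 0.12 above it in both. With other sites, peaks or libraries this gap ran from 0.07 to 0.19.

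Leaving out each library gave median differences of 0.11 to 0.20, and by construction more sites with groups that do not overlap, 333 to 408 lower and 592 to 669 higher (33.0% to 35.6% and 38.6% to 43.3% of all regions). With the replicate block, 299 sites were lower and 534 higher in both same-numbered pairs (28.4% and 33.7% of all regions). The labels do not say whether equal replicate numbers mark a shared batch. The deviations of same-numbered libraries had a correlation of -0.05, which cannot decide this with 2 libraries a group. At the stricter q the median coverages were 33 and 24 in the untreated and 15 and 22 in the treated libraries, since weaker sites drop out by construction. Merging within 150 bp gave 1572 sites and a median difference of 0.16. The lowest listed coverage of 4 limits how low a site in all 4 lists can be.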
